A study of Mus musculus with 6 samples.

Results

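The hepatocyte identity transcription factors are 9 genes, Hnf4a, Foxa1, Foxa2, Foxa3, Cebpa, Cebpb, Cebpd, Onecut1 and Prox1, taken by their symbol from a table of 34745 genes measured in mouse liver. They were chosen for what they are known to do, not by a cut on expression values, though earlier results of these data were known. All mice were WT, of the C57BL/6J strain, described in the study's methods as males of 8 to 10 weeks, and all were fasted for 12 hours. The APAP group received a single overdose of acetaminophen (APAP, 300 mg/kg, intraperitoneal) and was sampled at 12 hours, and the saline group received saline. Each group comprised 3 livers. The values analysed came from 2 APAP libraries (replicates 1 and 3, here APAP 1 and APAP 3) and from 3 libraries named WT1, WT2 and WT3, which were read as saline, since APAP appears in the name of the others. APAP replicate 2 was not analysed here.

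Hepatocytes keep their identity through a small set of transcription factors that bind one another's genes and, together, the genes of albumin, clotting factors, apolipoproteins and bile acid enzymes. HNF4A is the nuclear receptor at the centre of this network, the FOXA proteins are forkhead factors that open closed chromatin, and the C/EBP proteins are basic leucine zipper factors, of which C/EBPα is abundant in the resting liver while C/EBPβ and C/EBPδ are induced in the acute phase response. ONECUT1 (HNF6) and PROX1 act from early liver development onward. Acetaminophen overdose kills the hepatocytes around the central vein, where the drug is converted to its reactive metabolite.

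Upstream sequences are shown for the 3 members on which the comparison turns, Cebpa, its counterpart Cebpb and Hnf4a, whose count pools transcripts of more than 1 start. Each is the 250 bases that precede a RefSeq start (GRCm38.p6), written 5′ to 3′ on the strand of the gene, which is the plus strand in every case. A RefSeq window was matched for 8 of the 9 members, without Cebpd. The Cebpa window, chr7:35119043-35119292, holds a TATA box (TATAAA, in capitals) whose first base lies 30 bases before the start, and these letters occur on either strand in 12.4% of 32851 mouse windows of this length. The Cebpb window, chr2:167688665-167688914, holds 3 copies of the half-site TGACG (in capitals, CGTCA where it reads on the other strand) of the cAMP response element, beginning 180, 53 and 7 bases before the start, and 17.8% of windows hold at least 1. Hnf4a has a pair of RefSeq starts. The window of the upstream start, chr2:163506607-163506856, holds the ONECUT letters ATCNAT (in capitals) at 59 bases, present in 18.9% of windows. The window of the downstream start, chr2:163546905-163547154, holds 2 copies of the HNF1 half-site GTTAAT, read on the other strand as ATTAAC (in capitals), at 81 and 74 bases, letters found in 6.43% of windows. The search covered 7 motifs on both strands, and the other 3, C/EBP (TTGCNNAA, in 9.56% of windows), FOXA (TGTTTAC, 3.17%) and STAT (TTCNNNGAA, 7.02%), have no match in these 4 windows. No matches overlap each other. These are letter matches and no binding was measured.
Cebpa: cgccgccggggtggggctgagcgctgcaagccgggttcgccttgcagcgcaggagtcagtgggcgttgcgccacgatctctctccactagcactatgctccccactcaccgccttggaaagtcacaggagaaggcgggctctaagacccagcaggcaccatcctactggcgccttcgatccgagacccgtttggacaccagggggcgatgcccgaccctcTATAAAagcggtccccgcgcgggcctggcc
Cebpb: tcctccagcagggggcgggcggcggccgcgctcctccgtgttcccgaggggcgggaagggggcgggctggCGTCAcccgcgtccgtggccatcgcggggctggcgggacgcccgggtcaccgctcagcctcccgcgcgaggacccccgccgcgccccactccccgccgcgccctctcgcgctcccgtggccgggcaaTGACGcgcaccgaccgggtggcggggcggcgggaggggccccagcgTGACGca
Hnf4a, upstream start: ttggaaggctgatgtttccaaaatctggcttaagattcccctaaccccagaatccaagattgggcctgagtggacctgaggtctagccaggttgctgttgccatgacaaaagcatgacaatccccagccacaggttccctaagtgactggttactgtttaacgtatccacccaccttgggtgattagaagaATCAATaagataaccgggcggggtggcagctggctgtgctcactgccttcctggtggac
Hnf4a, downstream start: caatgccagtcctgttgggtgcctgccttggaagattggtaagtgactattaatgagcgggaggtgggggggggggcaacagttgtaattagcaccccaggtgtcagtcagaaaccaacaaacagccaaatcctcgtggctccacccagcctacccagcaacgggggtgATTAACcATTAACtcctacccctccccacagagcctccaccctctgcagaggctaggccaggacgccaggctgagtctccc

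The total count ranged from 13378445 to 15976339 per library, and values below are CPM, read counts scaled to the TMM-normalized library size, unless stated otherwise. The libraries differed in sex-linked genes along the line of the treatment. Xist, the RNA made by an inactive X, measured 0.764 and 1.73 CPM after APAP, against 289.6 to 914 CPM after saline, whereas the Y-linked Ddx3y measured 79.0 and 61.7 CPM after APAP and had 0 to 1 counts per saline library. The saline libraries thus go against the stated male sex, and for every comparison below the treatment and the difference in sex-linked expression cannot be told apart. All 7 matched hepatocyte markers were far above the floor of detection in every library, and none was called. Their summed level came to 82662 and 131828 CPM after APAP, against 128614 to 176407 after saline, with albumin (Alb) at 51545 and 89798 against 95101 to 129117 CPM. Of 10 neutrophil markers, 8 were called higher (80%, against 7.23% of all genes). Their summed level was 82.4 to 130 CPM after APAP, against 4.84 to 9.42 in saline. In whole liver, fewer cells of a type and less RNA per cell cannot be told apart. The gene-level p-values set the difference between groups against the spread between these libraries, estimated with the help of all tested genes.

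In the liver 12 hours after APAP, Cebpa was 2.54-fold lower than in saline liver, the only change among the 9 factors that passed the test. The other C/EBP genes, Cebpb and Cebpd, had higher estimates, and neither passed the test. Each took a larger share of the C/EBP transcripts per length in both APAP livers than in any saline liver. A lower Cebpa alone raises such shares. The ratio of either gene to Cebpa gave p = 0.2 by the exact two-sided permutation test, the smallest p possible here. Each APAP library had less Hnf4a than every saline library, without passing the adjusted test. No forkhead gene passed the test, and neither did Onecut1 or Prox1. Of the 13734 genes tested, 993 (7.23%) had an adjusted p under 0.05 (edgeR's quasi-likelihood test, Benjamini-Hochberg), and 1 of the 9 members (11.1%) did. The groups did not overlap in 4 members (44.4%), namely Hnf4a, Foxa2 and Cebpa, which were lower, and Cebpd, which was higher. The same was true of 44.1% of all tested genes, so this count of members is that of the background. At an unadjusted p under 0.05 with a fold change of at least 1.5, 3 members passed (33.3%, Hnf4a, Cebpa and Cebpd) against 23.5% of all genes. The median log2 fold change of the members was 0.03, as was that of all tested genes, 0.03.

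**Figure D1:**
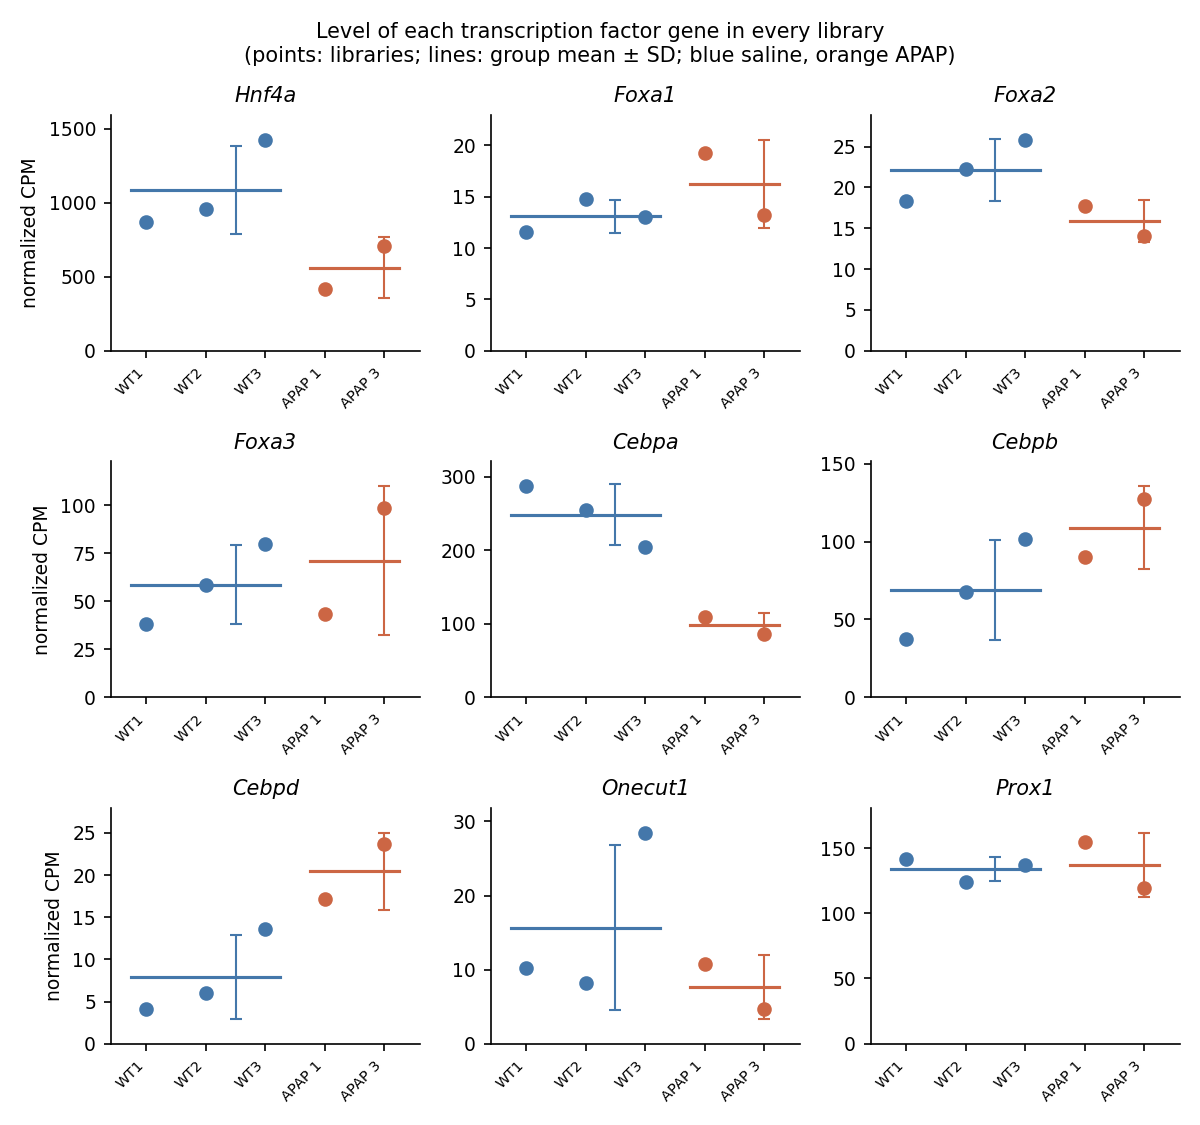
Normalized CPM (y axis, from 0) of each of the 9 transcription factor genes in the 3 saline libraries (blue) and the 2 APAP libraries (orange), with the group mean and SD as lines. Cebpa reads 86.1 and 109 CPM after APAP, against 205 to 287 after saline, while Prox1 stays between 119.9 and 155 CPM in all 5.

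**Figure D2:**
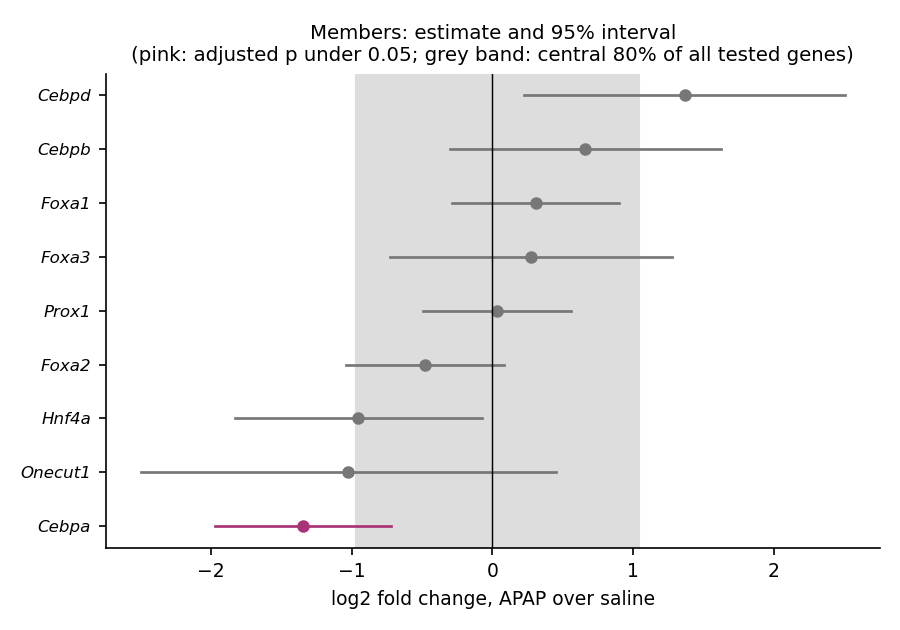
Log2 fold change of APAP over saline (x axis) with its 95% confidence interval for each member, Cebpa in pink as the gene with an adjusted p under 0.05. The grey band runs from the 10th to the 90th percentile of all tested genes, -0.97 to 1.04 on the log2 scale, and the estimates of Cebpa, Onecut1 and Cebpd lie outside it.

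Hnf4a encodes the nuclear receptor that is needed for most hepatocyte genes. It lies on chromosome 2 from 163506808 to 163572910 (plus strand, GRCm38), and the gene-level count pools transcripts from both of its starts, whose upstream sequences are printed above. The window of the upstream RefSeq start ends at 163506856, so its last bases lie inside the counted span. The Hnf4a level was 415 CPM in APAP 1, 706 in APAP 3, 871 in WT1, 960 in WT2 and 1424 in WT3. Both APAP libraries were below all saline libraries, and APAP 3 was nearer to WT1 than to APAP 1. The mean was 560 ± 206 CPM (SD, n = 2) with APAP and 1085 ± 297 (SD, n = 3) with saline. The log2 fold change was -0.95 (SE 0.37, 95% interval -1.83 to -0.07), with an adjusted p of 0.172 by edgeR's quasi-likelihood test. The adjusted p was 0.0386 with DESeq2, and ranged from 0.0386 to 0.577 over 13 alternatives in edgeR and DESeq2. The estimate was between -1.40 and -0.60 on the log2 scale, at -1.40 without APAP 3 and -0.62 without APAP 1. Per 1000 Alb counts, Hnf4a gave 8.05 and 7.86 after APAP, against 6.75, 10.1 and 11.8 after saline, so that the groups overlapped on this scale. The antisense gene Hnf4aos overlaps the locus without a shared exon base and had 28 to 95 counts per library, against 7066 to 21316 for Hnf4a.

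Per length, Hnf4a was the most abundant of the 9 transcripts in both groups, at 116 ± 42.6 CPM per kilobase of exon with APAP and 225 ± 61.5 with saline. Cebpa followed in the saline livers at 94.3 ± 15.7 CPM per kilobase. In the APAP livers Cebpb followed at 72.5 ± 17.6 CPM per kilobase, ahead of Cebpa at 37.1 ± 6.22 and Foxa3 at 34.9 ± 19.05, whose ranges overlap. Onecut1 had the lowest level per kilobase, 1.87 ± 1.05 with APAP and 3.80 ± 2.71 with saline. Neighbouring factors in this order differed by less than their spread in several places, such as Foxa1 (5.10 ± 1.34 CPM per kilobase) and Foxa2 (6.70 ± 1.07) in the APAP livers.

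The 3 forkhead genes encode pioneer factors that bind nucleosomal DNA at liver enhancers. Foxa1 (chromosome 12, 57540631 to 57546121, minus strand) was at 19.3 CPM in APAP 1, 13.2 in APAP 3, 11.6 in WT1, 14.7 in WT2 and 13.03 in WT3. APAP 1 was highest and APAP 3 lay among the saline libraries (log2 fold change 0.31, SE 0.25, adjusted p = 0.499 by edgeR's quasi-likelihood test).

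Foxa2, which also controls bile acid and glucose metabolism genes, lies on chromosome 2 from 148042877 to 148046969 on the minus strand. Its level was 17.7 CPM in APAP 1, 14.1 in APAP 3, 18.3 in WT1, 22.3 in WT2 and 25.8 in WT3. Both APAP libraries were below the saline libraries, with APAP 1 close to WT1. The log2 fold change was -0.48 (SE 0.24, 95% interval -1.04 to 0.09), and the adjusted p was 0.271 by edgeR's quasi-likelihood test. Per Alb count the sign turned, to a difference of 0.27 on the log2 scale, and the groups overlapped.

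Foxa3, the forkhead gene with the highest level per kilobase in these livers, lies on chromosome 7 from 19013284 to 19023538 (minus strand). It was at 43.7 CPM in APAP 1, 98.5 in APAP 3, 38.2 in WT1, 58.3 in WT2 and 79.7 in WT3. APAP 3 was the highest library and APAP 1 lay between WT1 and WT2. The Foxa3 log2 fold change of 0.27 (SE 0.42, adjusted p = 0.737 by edgeR's quasi-likelihood test) became -0.44 without APAP 3 and 0.75 without APAP 1. The ratio of Foxa2 to Foxa3 counts, which does not depend on library scaling, was 0.405 in APAP 1, 0.143 in APAP 3, 0.479 in WT1, 0.382 in WT2 and 0.324 in WT3. It overlapped between groups (difference of mean log2 ratios -0.69, exact two-sided permutation p = 0.6, and 0.056 without APAP 3).

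Among the C/EBP genes, Cebpa encodes the factor that drives metabolic genes in the quiescent hepatocyte. It is an intronless gene on chromosome 7 from 35119293 to 35121928 (plus strand), directly downstream of the window with the TATA box printed above. Its level was 109 CPM in APAP 1, 86.1 in APAP 3, 287 in WT1, 254 in WT2 and 205 in WT3. Both APAP libraries were well below the lowest saline library, and the spread within each group was small. The mean was 97.7 ± 16.4 CPM (SD, n = 2) with APAP and 249 ± 41.3 (SD, n = 3) with saline. Cebpa fell by 1.35 on the log2 scale (SE 0.26, 95% interval -1.97 to -0.72, adjusted p = 0.0330 by edgeR's quasi-likelihood test).

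The call of Cebpa held in 8 of 13 alternatives, with an adjusted p from 1.2e-05 (DESeq2) to 0.153, and the estimate was negative in all 13. In edgeR it was lost with library size as the only scaling (-0.93, adjusted p = 0.0690), without APAP 1 (-1.53, 0.135), without APAP 3 (-1.20, 0.153), without WT1 (-1.22, 0.0663) and without WT2 (-1.33, 0.121). Per 1000 Alb counts, Cebpa gave 2.12 and 0.959 after APAP, against 2.22, 2.67 and 1.70 after saline, and APAP 1 then lay within the saline range. The antisense gene ENSMUSG00000108624 shares 51 exon bases with Cebpa and had 2 to 11 counts per library, against 1393 to 3827 for Cebpa.

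Cebpb encodes the factor first described as a nuclear factor for interleukin-6 responses. It lies on chromosome 2 from 167688915 to 167690418 (plus strand), downstream of the window with the half-sites of the cAMP response element. It was at 90.3 CPM in APAP 1, 128 in APAP 3, 37.6 in WT1, 67.8 in WT2 and 101 in WT3. APAP 1 lay below WT3, so the groups overlapped, and the saline libraries alone spanned a 2.70-fold range. The log2 fold change was 0.66 (SE 0.41, 95% interval -0.30 to 1.62, adjusted p = 0.372 by edgeR's quasi-likelihood test). Tmem189 on the other strand shares 312 exon bases with Cebpb and had 162 to 382 counts per library against 419 to 2065 for Cebpb. The strand setting of the counting is not given in the sources used here, so reads in the shared bases cannot be told apart.

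Cebpd encodes an acute phase activator that is scarce in unstimulated liver. It was counted on chromosome 16 from 15887286 to 15888466 (plus strand), a span shorter than that of GENCODE M21. Its level was 17.2 CPM in APAP 1, 23.7 in APAP 3, 4.12 in WT1, 5.98 in WT2 and 13.6 in WT3. Both APAP libraries were above every saline library, and WT3 lay nearer to APAP 1 than to the other saline libraries. The mean was 20.4 ± 4.57 CPM (SD, n = 2) against 7.89 ± 5.001 (SD, n = 3). The log2 fold change was 1.37 (SE 0.48, 95% interval 0.23 to 2.50), and the adjusted p was 0.138 by edgeR's quasi-likelihood test. Without WT3 it was 2.01, with an adjusted p of 0.0253 by the same test, in a range from 0.0253 to 0.386 over the 13 alternatives.

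The balance within the C/EBP family was read as a ratio of counts inside each library, which no scaling of libraries can alter. The ratio of Cebpb to Cebpa counts was 0.826 in APAP 1, 1.48 in APAP 3, 0.131 in WT1, 0.267 in WT2 and 0.495 in WT3. Both APAP libraries were above all saline libraries, and the mean ratio on the log scale was 4.28-fold higher. The ratio of Cebpd to Cebpa was 0.158 in APAP 1, 0.275 in APAP 3, 0.0144 in WT1, 0.0235 in WT2 and 0.0662 in WT3. It was 7.38-fold higher with APAP, again without overlap. The exact two-sided permutation test gave p = 0.2 for each, which is the smallest p that 2 against 3 libraries allow, and 0.3 after Benjamini-Hochberg adjustment over the 3 ratios computed. On the log2 scale the difference ranged from 1.61 to 2.57 for Cebpb to Cebpa and from 2.40 to 3.50 for Cebpd to Cebpa when each library was left out in turn.

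Per kilobase of exon, the 3 C/EBP genes summed to 116 and 138 CPM per kilobase after APAP, against 137, 147 and 157 after saline. The sums of the groups overlapped, while the shares did not. Cebpa made up 35.7% of the sum in APAP 1 and 23.7% in APAP 3, against 79.3% in WT1, 65.8% in WT2 and 49.6% in WT3. Cebpb made up 51.7% and 61.7% in the APAP libraries, against 18.2%, 30.7% and 43.1%. Cebpd made up 12.6% and 14.6% in the APAP libraries, against 2.54%, 3.45% and 7.33%. In each case WT3 was the saline library nearest to the APAP libraries.

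**Figure D3:**
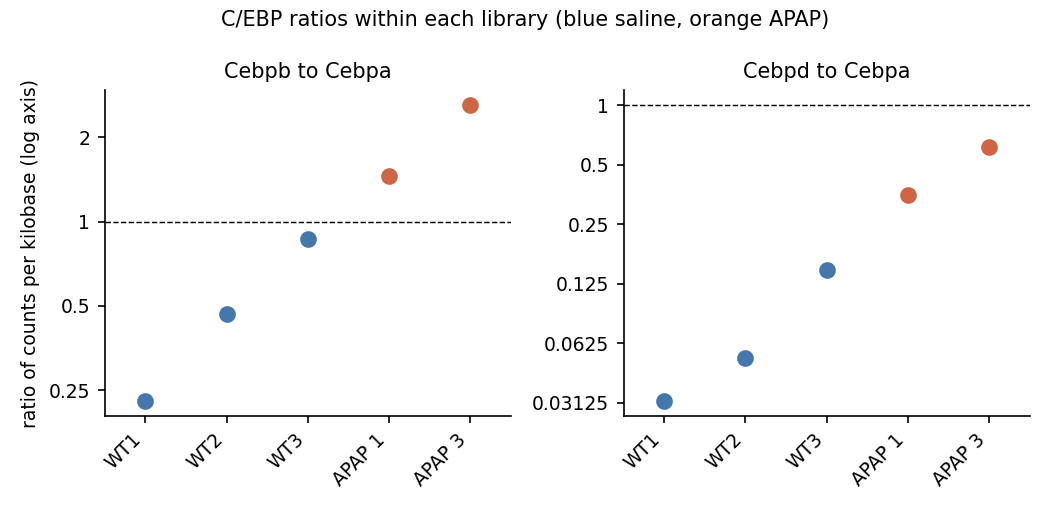
Ratio of Cebpb to Cebpa (left) and of Cebpd to Cebpa (right) as counts per kilobase of exon, on a log axis, in the 3 saline (blue) and 2 APAP libraries (orange), with a dashed line at equal levels. Cebpb exceeds Cebpa in both APAP libraries (1.45 and 2.60) and in no saline library (0.229 to 0.868).

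Onecut1 and Prox1 encode homeodomain factors, the first of the cut class. Onecut1 (chromosome 9, 74861921 to 74891781, plus strand) was at 10.8 CPM in APAP 1, 4.64 in APAP 3, 10.2 in WT1, 8.24 in WT2 and 28.5 in WT3. WT3 stood apart from the other saline libraries, which spanned a 3.45-fold range with it, and the groups overlapped. The log2 fold change was -1.02 (SE 0.62, adjusted p = 0.364 by edgeR's quasi-likelihood test) and -0.26 without WT3. Gm20649, on the same strand, shares 2171 exon bases with Onecut1 and had 0 to 16 counts per library against 75 to 426 for Onecut1, so the Onecut1 count is uncertain where the counting split these reads.

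Prox1, a co-regulator of HNF4A and of the bile acid genes, lies on chromosome 1 from 190118035 to 190170714 (minus strand). It was at 155 CPM in APAP 1, 119.9 in APAP 3, 142 in WT1, 124 in WT2 and 137 in WT3. The APAP libraries were the highest and the lowest of the 5, and the saline libraries spanned a 1.14-fold range, the narrowest of the 9 members. The log2 fold change was 0.03 (SE 0.22, 95% interval -0.49 to 0.56, adjusted p = 0.947 by edgeR's quasi-likelihood test), and its sign turned in 4 of 13 alternatives. The antisense gene Prox1os shares 133 exon bases with Prox1 and had 33 to 140 counts against 1579 to 2631 for Prox1. Gm28172, also antisense and with no shared exon base, had 0 to 5.

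Within the saline group, WT3 was the highest library for 6 of the 9 members and WT1 the lowest for 6. Cebpa was an exception, highest in WT1 and lowest in WT3. The saline spread was 3.29-fold for Cebpd and 3.45-fold for Onecut1. Per Alb count the APAP libraries were above all saline libraries for Foxa3, Cebpb, Cebpd and Prox1, and they overlapped with them for the other 5 members. Alb itself had an estimate below 0 (log2 fold change -0.70, not called), so dividing by it shifts every gene upward. Prox1, at 0.03 on the log2 scale before this division, had a difference of 0.77 after it. The share of all genes above saline on this scale was not computed, so the members cannot be set against a background here. This scaling was added after the data had been seen.

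The 28 other liver-enriched regulators are transcription factors of the same network, and 27 passed the filter on low counts. Of these, 2 (7.41%) fell and none rose, against 7.23% called among all genes. Estimates lay below 0 in 22, whereas 52.0% of all tested genes had an estimate above 0. The groups did not overlap in 44.4% of these regulators, against 44.1% of all genes. Their median log2 fold change was -0.50, which became -0.31 without WT1. The medians stayed below 0 under each scaling, at -0.11 with library size only, where that of all genes was 0.42. Mlxipl, which encodes the carbohydrate response factor ChREBP, measured 60.6 and 52.9 CPM after APAP, against 137, 377 and 237 after saline. Klf15, a regulator of fasting amino acid metabolism, measured 36.1 and 79.2 CPM after APAP, against 154, 236 and 300.1 after saline. Both were below every saline library and fell by 2.14 (adjusted p = 0.0385) and 1.99 (adjusted p = 0.0451) on the log2 scale by edgeR's quasi-likelihood test.

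Nr1i3, which encodes the xenobiotic receptor CAR, had a log2 fold change of -1.01 (adjusted p = 0.206), and Rxra, the shared partner of these receptors, -0.55 (adjusted p = 0.197), both by edgeR's quasi-likelihood test. Zbtb20, a repressor of the fetal gene Afp, was singled out after its values were seen. It measured 5.82 and 5.62 CPM after APAP, against 105 in WT1, 136 in WT2 and 7.95 in WT3, so that WT3 stood with the APAP libraries. The count of 2 regulators called became 0 without WT2 and 1 without WT1 or without WT3. Over all genes the calls were then 165, 510 and 922, against 993 with every library.

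**Figure D4:**
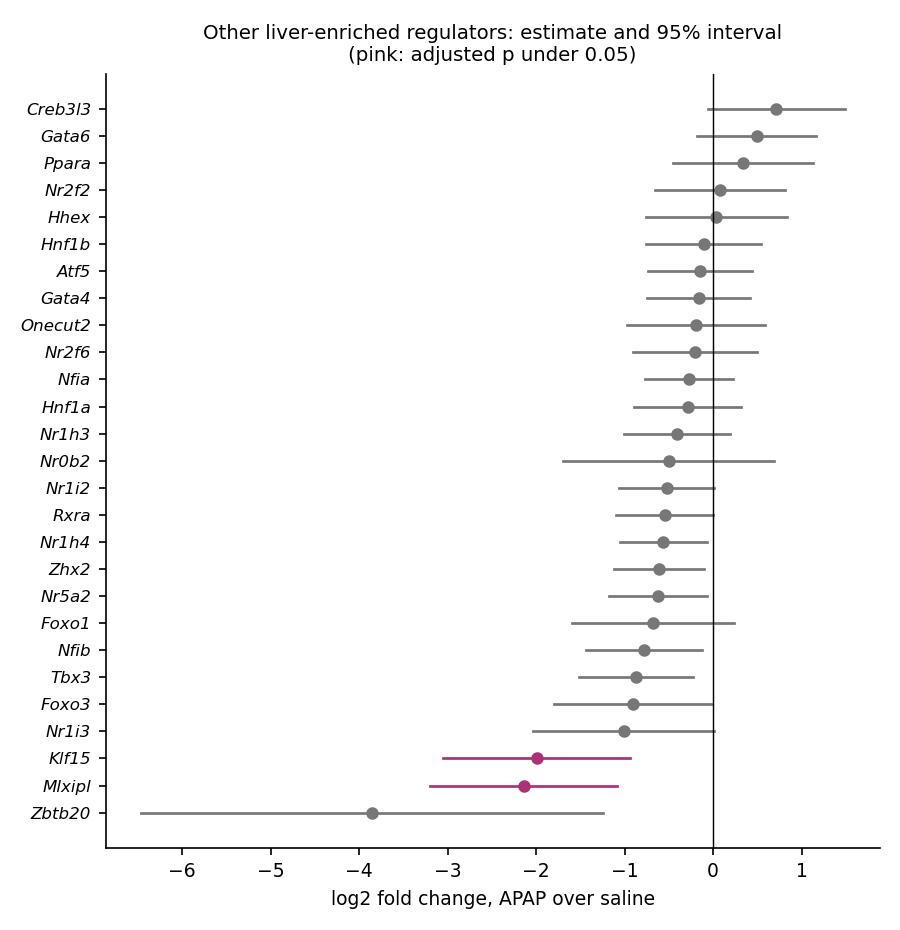
Log2 fold change of APAP over saline (x axis) with its 95% confidence interval for the 27 tested liver-enriched regulators, sorted by estimate. Mlxipl and Klf15, in pink, have an adjusted p under 0.05, and 22 of the 27 estimates lie below 0.

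Of 31 matched genes taken as targets of HNF4A, all tested, 8 fell and 1 rose (29.0% called, against 7.23% of all genes), and 25 estimates lay below 0. Their median log2 fold change was -1.20, and -0.81 with library size only. No overlap between groups was seen for 83.9% of the list, against 44.1% of all genes, with 24 targets lower and 2 higher. Otc, the urea cycle enzyme, measured 85.0 and 112 CPM after APAP, against 473, 476 and 314 after saline (log2 fold change -2.09, adjusted p = 0.0150 by edgeR's quasi-likelihood test). Slc10a1, the bile acid importer NTCP, measured 192 and 168 CPM after APAP, against 717, 531 and 403 after saline (-1.61, adjusted p = 0.0346). Both were lower in every APAP library than in every saline library.

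Among the other targets that fell were Cyp7a1, Dio1, Lipc, F13b and F7, of which Cyp7a1, the rate-limiting enzyme of bile acid synthesis, was at 1.18 and 1.42 CPM against 72.7 to 163. Apoa4, an apolipoprotein of the intestine and the stressed liver, went the other way, from 178 to 327 CPM in the saline libraries to 3633 and 2340 CPM with APAP (log2 fold change 3.58, adjusted p = 0.00521 by edgeR's quasi-likelihood test). The most abundant targets that were not called were Apob (-0.34, adjusted p = 0.604) and Apoa1 (0.57, adjusted p = 0.437). The count of 9 called became 2 without WT2 and 5 without WT1, where 165 and 510 of all genes were called, against 993.

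Of 8 FOXA target genes, 5 of which are also on the HNF4A list, 1 rose (12.5%, against 7.23% of all genes). By edgeR's likelihood ratio and exact tests 4 were called, and 5 by DESeq2, which called 1835, 1776 and 2093 of all 13734 genes. The median log2 fold change of the 8 was -0.93, and -0.47 without APAP 1 or -0.58 with library size only. The gene that rose was Afp, the fetal counterpart of albumin, which measured 6.93 and 6.61 CPM after APAP, against 0.399 to 0.448 with saline (log2 fold change 4.004, adjusted p = 0.00398 by edgeR's quasi-likelihood test). Alb (-0.70, adjusted p = 0.512) and Ttr, which encodes transthyretin (-1.64, adjusted p = 0.0776), were not called.

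Of 22 acute phase genes known as C/EBP targets, 6 rose and none fell (27.3%, against 7.23% of all genes), and the median log2 fold change was 0.76, which became 0.44 without APAP 1, 1.07 without APAP 3 and 1.20 with library size only. The genes that rose were Saa1, Saa2, Lcn2, Serpina3n, Apcs and Il1rn. Lcn2, an iron-siderophore-binding protein, was at 2045 CPM in APAP 1 and 661 in APAP 3, against 11.8, 9.499 and 62.1 in the saline libraries (log2 fold change 5.60, adjusted p = 0.0231 by edgeR's quasi-likelihood test). Serpina3n, a protease inhibitor, was at 2924 and 1345 CPM against 362, 274 and 445 (2.57, adjusted p = 0.0180). Both, like Saa1 and Saa2, were higher in APAP 1 than in APAP 3. Apcs (510 CPM in APAP 1 and 603 in APAP 3) and Il1rn (9.40 and 17.1) were higher in APAP 3, as were Cebpb and Cebpd. Lcn2 is also abundant in neutrophils, whose markers were higher in both APAP libraries, and the part of these cells in its level was not tested. C3 (-0.86, adjusted p = 0.279) and Fgb (0.77, adjusted p = 0.252) were not called. The count of 6 became 1 without WT1 and 0 without WT2, where 510 and 165 of all genes were called, against 993.

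**Figure D5:**
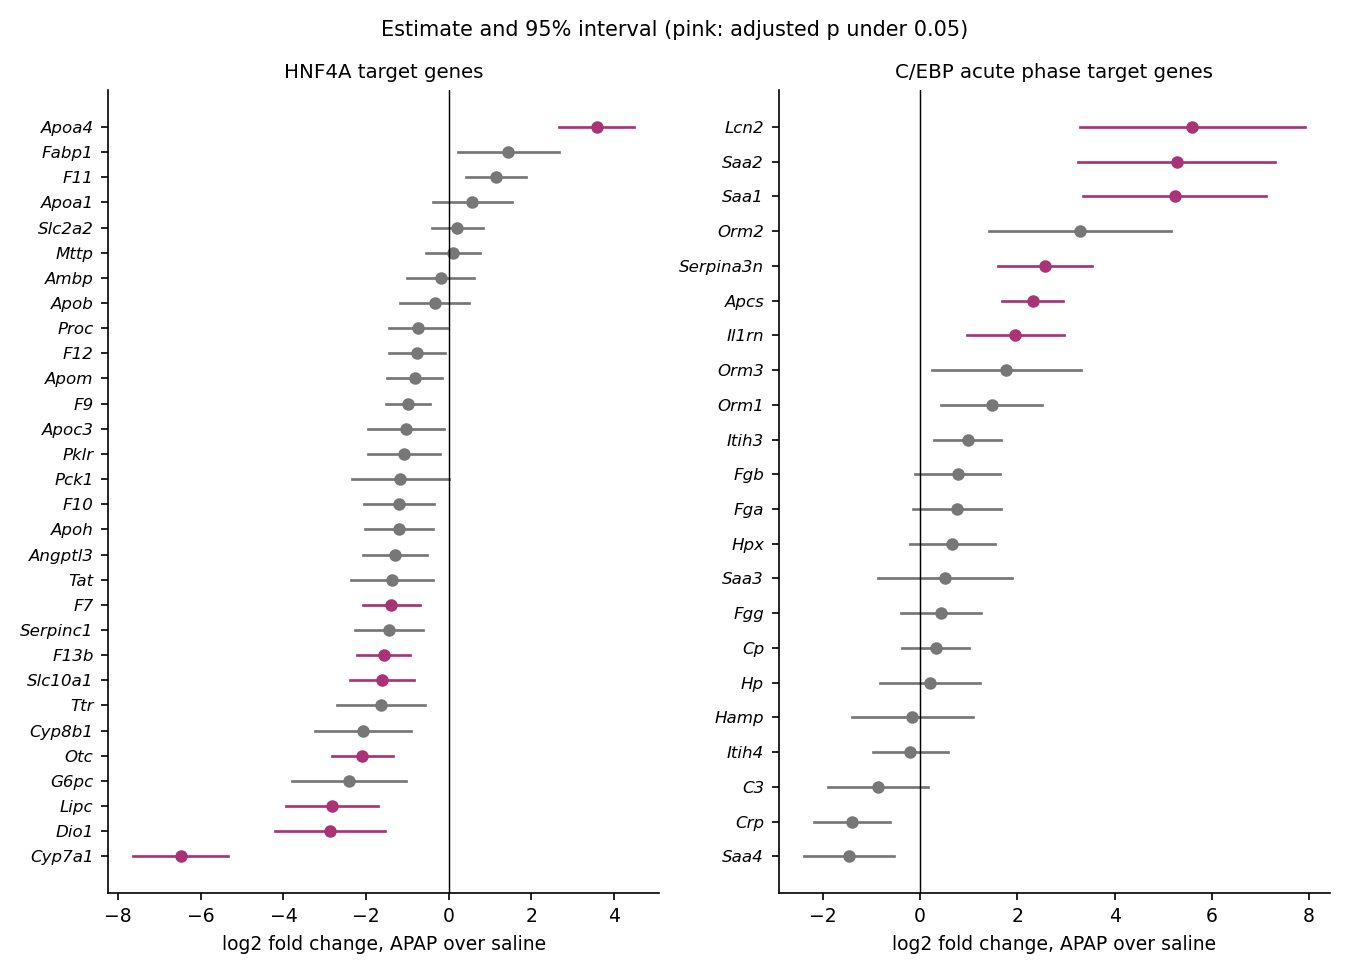
Log2 fold change of APAP over saline (x axis) with its 95% confidence interval for 30 of the HNF4A target genes (left) and 22 C/EBP acute phase target genes (right), in pink where the adjusted p is under 0.05. On the left 24 of the 30 estimates lie below 0, and on the right 17 of 22 lie above 0.

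The signaling known to induce Cebpb and Cebpd was read from 12 genes for cytokines, receptors and downstream factors. Of these, 8 passed the filter on low counts and 2 (25%, against 7.23% of all genes) rose. The median log2 fold change of the 8 was 0.86, and 0.56 without WT2. Socs3, the feedback inhibitor of STAT3 signaling, measured 38.0 and 33.7 CPM after APAP, against 7.35, 4.78 and 14.1 after saline (log2 fold change 2.03, adjusted p = 0.0374 by edgeR's quasi-likelihood test). Osmr, the oncostatin M receptor, was at 16.6 and 13.4 CPM against 2.51, 5.18 and 4.54 (1.87, adjusted p = 0.0286). Neither gene overlapped between the groups. Of the cytokines themselves, Il6 had 0 to 5 counts per library and, like Tnf, Osm and Lif, was not tested. Il1b was tested and not called (log2 fold change 0.78, adjusted p = 0.454 by edgeR's quasi-likelihood test). Il6st (0.30, adjusted p = 0.518) and Il1r1 (0.93, adjusted p = 0.371) were not called. The count of 2 became 0 without WT2, 1 without WT1 and 3 without WT3. Over all genes the calls were then 165, 510 and 922, against 993 with every library.

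Among 9 partners and regulators of the C/EBP proteins, 0 passed edgeR's quasi-likelihood test, against 7.23% of all genes. Its likelihood ratio and exact tests each called 2 and DESeq2 called 3, where they called 1835, 1776 and 2093 of all 13734 genes. An unadjusted p under 0.05 with a fold change of at least 1.5 was seen for 4, against 23.5% of all genes. The median log2 fold change of the 9 was 0.057, between -0.086 without WT1 and 0.22 without WT3. Trib1, which encodes the adaptor that directs C/EBPα protein to degradation, was at 121 CPM in APAP 1 and 248 in APAP 3, against 30.8, 33.8 and 74.4 in the saline libraries. The groups did not overlap (log2 fold change 1.99, adjusted p = 0.0521 by edgeR's quasi-likelihood test). Atf4, which encodes a stress factor that pairs with C/EBP proteins, was at 171 and 173 CPM against 108, 88.6 and 113 (0.73, adjusted p = 0.0904).

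The genes with the most similar profile to each member were read as a description over the 5 libraries, by the root mean square distance of log2(CPM + 0.5) centred on its mean. For Cebpa they were Slc25a21 (0.08) and Fras1 (0.08), and for Cebpd the receptor subunit Csf2rb (0.16) and Lilr4b (0.17), both known from myeloid cells. For Hnf4a they were Gm29438 (0.06) and AI118078 (0.09), both at or under 2.81 CPM in every library. At such levels the added 0.5 narrows the changes, and their log2 fold changes were -1.69 and -1.32, against -0.95 for Hnf4a. Cebpb was nearest to Rapgef5 (0.06) and Slc41a1 (0.09), and Foxa1 to Ppfibp2 (0.04) and Orc5 (0.04). Foxa2 was nearest to Rfxank (0.05) and Tab2 (0.06), and Foxa3 to Tlr7 (0.12) and Slc25a32 (0.13). Prox1 was nearest to Cenpa (0.03) and Rps21 (0.04). Onecut1 had the most distant neighbours, Gm42878 (0.25) and Nfix (0.26).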

How the data were processed

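Liver RNA was sequenced on an Illumina NovaSeq platform. The authors deposited raw read counts per gene and library, without normalization, and their methods name HISAT2, a read aligner, for the counts and Stringtie for FPKM. The submitters' processing notes name GRCm38 (mm10). No separate counting program is named, and the annotation, strand setting and program versions are not given in the sources used here. The 5 columns of FPKM were not used.

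The statistics used edgeR 4.0.16 in R 4.3.3. filterByExpr (minimum count 10, minimum total 15) left 13734 genes, which were TMM-normalized and compared by the quasi-likelihood test with Benjamini-Hochberg adjustment over all of them. A gene was called at an adjusted p under 0.05. The detection floor, set at 3 counts, was 0.176 to 0.269 CPM and allows for counting error alone, as no molecular identifiers are described. The test was planned on 3 against 3 libraries and run unchanged on 2 against 3. On simulated counts of 2 against 3 libraries (13011 genes), the test called 54 of 100 genes changed 4-fold, 1 of 100 changed 2-fold and 8 unchanged genes. Libraries of 1 group differed beyond counting error (chi-square of 43.2 to 92.2 for each degree of freedom), and none was counted as a duplicate.

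Levels per kilobase used GENCODE M21 exon bases inside the counted span. Ratios were tested by an exact permutation test (SciPy 1.17.1) in Python 3.11.15, and plots were drawn with matplotlib 3.10.9. The alternatives comprised DESeq2 1.42.0, the exact and likelihood ratio tests of edgeR, 3 other scalings, 2 other filters, another threshold, each library left out, for ratios a pseudocount of 0.5 and counts per kilobase, and, added after seeing the data, counts per Alb count.

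Members and lists were chosen with earlier results of these data known. Genes named beside the members are those overlapping a member, the 2 nearest profiles of each member, Alb, Xist and Ddx3y, and from each list the 2 most abundant called higher, called lower and not called. Zbtb20, Cyp7a1, Igf2, Il6 and the other cytokines, and further called genes of 2 lists, were named after their values were seen. Of the HNF4A targets, 1 counted gene is not reported by name here.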

Additional observations from a re-analysis of the deposited data

How the results depend on the processing

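No paired analysis was possible because the saline columns carry no replicate number that matches a sample. The number of genes called, 993, was 1835 with edgeR's likelihood ratio test, 1776 with its exact test, 2093 with DESeq2, 3228 at an unadjusted p under 0.05 together with a 1.5-fold change, and 165 to 922 with each library left out. With library size only, 1042 were called higher and 297 lower, against 508 and 485, and the median of all genes moved from 0.03 to 0.42 on the log2 scale. Of the members, 2 were called with DESeq2, 0 with library size only, 3 at the unadjusted threshold and 0 to 2 with each library left out. Of the liver-enriched regulators, 6 were called with DESeq2, 0 with library size only, 8 at the unadjusted threshold and 0 to 1 with each library left out. Of the HNF4A targets, 19 were called by each of the likelihood ratio and exact tests, 25 by DESeq2 and at the unadjusted threshold, 14 without a filter and 2 to 9 with each library left out. Of the acute phase targets, 11 were called by the likelihood ratio test, the exact test and DESeq2, 12 with library size only and at the unadjusted threshold, and 0 to 7 with each library left out.

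The sign of Prox1 turned with DESeq2 (-0.0059), with its size factors in edgeR (-0.0061), without APAP 1 (-0.16) and without WT2 (-0.023), in a range from -0.16 to 0.19 with each library left out, and that of Foxa3 without APAP 3 (-0.44, up to 0.75 without APAP 1). Foxa2 turned per Alb count (0.27). The difference between groups in the mean log2 ratio of Foxa2 to Foxa3 was 0.056 without APAP 3, in a range from -1.45 to 0.056. The median of the fetal liver genes turned to -0.42 without APAP 1 (1.18 without APAP 3) and that of the C/EBP partners to -0.086 without WT1 (0.22 without WT3). The causes were not tested. With 1 library left in the APAP arm, that library was assumed to vary like the saline libraries. In the simulation, where 200 of 13011 genes were changed, a 2-fold change was rarely called. More genes were called in these data, which makes the adjustment less strict, so the simulated share is not that of these data.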

Other observations

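Genes of the biliary and progenitor program, which hepatocyte factors hold low in the adult liver, were also measured. Of 9 tested, 2 were called and rose (22.2%, against 7.23% of all genes), all 9 estimates lay above 0, and the median log2 fold change was 2.20, which became 0.74 without APAP 1. Sox9, a biliary transcription factor, measured 32.5 and 35.0 CPM after APAP, against 3.23, 4.65 and 4.28 after saline (log2 fold change 3.05, adjusted p = 0.00194 by edgeR's quasi-likelihood test). Spp1, which encodes osteopontin, was at 276 and 313 CPM against 40.1, 42.6 and 37.7 (2.88, adjusted p = 0.00183). Both were several-fold above every saline library in both APAP libraries. Krt19, a duct keratin, was at 23.6 CPM in APAP 1 and 2.72 in APAP 3, against 1.25, 2.06 and 2.54, and Cd24a at 48.7 and 5.56 CPM against 2.60, 3.92 and 3.94. Neither was called (adjusted p = 0.0914 and 0.0700), and in both the APAP libraries differed from each other more than APAP 3 differed from saline. The count of 2 became 6 with DESeq2, with edgeR's likelihood ratio and exact tests and without a filter. These settings called 2093, 1835, 1776 and 1402 of all genes, against 993.

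Of the 8 fetal liver genes, 5 had enough counts to be tested, of which 2 were called (40.0%, against 7.23% of all genes), Afp and Hmga2. Hmga2, a chromatin protein of embryonic tissue, had 44 and 45 counts in the APAP libraries and 0 in each saline library. Of the 5 estimates, 3 lay above 0 and 2 below. H19 measured 0.999 and 5.62 CPM after APAP, against 0.179, 12.0 and 17.9 after saline, so that the groups overlapped (log2 fold change -1.61, not called). Igf2 measured 0.588 and 0.556 CPM after APAP, below the saline libraries at 0.986, 1.79 and 1.60 (-1.35, not called). The count of 2 became 1 without WT2, where 165 of all genes were called, against 993.

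The female-biased factor Cux2 had 2 and 8 counts in the APAP libraries and 79 to 215 in the saline libraries (log2 fold change -5.02, adjusted p = 0.0263 by edgeR's quasi-likelihood test). Bcl6, a male-biased repressor, measured 30.6 and 27.8 CPM after APAP, against 19.7, 33.4 and 17.2 after saline (0.31, adjusted p = 0.585). Among the other cell types, 3 of 6 monocyte and 3 of 6 tested cholangiocyte markers were called higher (50% each, against 7.23% of all genes). The called cholangiocyte markers include Sox9 and Spp1, already counted with the biliary genes above. By edgeR's quasi-likelihood test, 0 of the 8 Kupffer cell, 8 sinusoidal endothelial, 8 stellate cell, 4 tested lymphatic endothelial and 2 tested lymphocyte markers were called.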
